A study of Mus musculus with 20 samples.

Results

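The 54 genes described here encode the contractile apparatus of striated muscle: myosin heavy and light chains, troponins, tropomyosins, sarcomeric actins, myosin binding proteins, titin and its neighbors, M-band and Z-disc proteins, and desmin. They were chosen by name, and all 54 were found in the heart table of 47069 genes and in the muscle table of 53801 genes. RNA was sequenced from frozen heart and femur muscle of mice with a systemic knockdown of Taz, the gene for tafazzin, which remodels the mitochondrial lipid cardiolipin and is mutated in Barth syndrome. The Taz-KD mice carried a tetracycline-inducible short hairpin RNA against Taz inserted at the ROSA26 locus, and the WT mice were C57BL/6N. Both genotypes received doxycycline at 625 mg/kg of chow and were 20 weeks old. There was 1 library per mouse and 5 mice per genotype and tissue, 20 libraries in all, and different mice gave the heart and the muscle libraries. Whole tissue was used, so fewer cells of a type and less RNA per cell cannot be told apart.

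The sarcomere shortens when myosin heads of the thick filament pull on actin of the thin filament, and calcium controls this through the troponin complex and tropomyosin. Light chains and binding protein C tune the myosin heads, titin spans from Z-disc to M-band as a molecular spring, and the Z-disc anchors the thin filaments and senses stretch. Most of these proteins come in isoforms that differ between ventricle, atrium, slow fibers and fast fibers, so the transcript mix reports both the type of muscle sampled and the state of the myocytes.

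Heart libraries held 30248445 to 35301909 counts in Taz-KD and 26963288 to 30090918 counts in WT, every Taz-KD library being deeper than every WT library. Muscle libraries held 46985694 to 74361382 counts in Taz-KD and 36429399 to 61100247 counts in WT. The 54 genes took 11.6 to 13.7% of heart counts in Taz-KD and 12.5 to 14.7% in WT. In muscle they took 18.8 to 25.5% in Taz-KD and 16.4 to 24.0% in WT. Levels are given as CPM, counts brought to a common library size with trimmed-mean (TMM) factors, and "passed the test" means an adjusted p under 0.05 in edgeR's quasi-likelihood test over all genes of the tissue. Taz itself averaged 11.7 ± 0.73 CPM in Taz-KD hearts and 37.8 ± 1.4 CPM in WT hearts (SD, n = 5 each). In muscle it averaged 13.4 ± 1.1 CPM in Taz-KD and 51.7 ± 3.4 CPM in WT. Libraries are listed below in one order: hearts R2, R1793, R1796, R1797 and R1798 for Taz-KD, against R3, R1791, R1792, R1795 and R1800 for WT, and muscles A34, A39, A52, A56 and A58 for Taz-KD, against A33, A40, A51, A55 and A57 for WT.

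In some libraries the levels of some cell-type marker genes stood apart. Of 6 atrial marker genes tested in heart, none passed the edgeR test. The atrial genes Sln and Mybphl were highest in Taz-KD hearts R1796, R1797 and R1798. Bmp10 and Stard10 were also highest in R1798, at 3.64 and 23.4 CPM, but came next in R1793 (0.916 CPM) and WT heart R1791 (21.1 CPM). The rest differed: Nppa was highest in R1793, Dkk3 in WT heart R3, and Kcnk3 stood at 186 to 296 CPM in every heart. In muscle, the slow-fiber markers Atp2a2, Casq2 and Ankrd2 were highest in WT muscles A55 and A40, and the adipocyte marker Adipoq reached 274 CPM in WT muscle A33. Among the other marker lists in heart, 2 of 4 ventricular genes (Pln and Kcne1) and 3 of 5 endothelial, 3 of 5 red cell, 1 of 5 smooth muscle and 1 of 3 denervation or regeneration genes tested were lower in Taz-KD, and none of the fibroblast, macrophage or adipocyte genes passed. Over all genes tested in heart, 10.3% were lower and 14.4% higher. In muscle no gene of any marker list passed the test, beside 0.0124% of all genes higher and 0.00619% lower.

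In heart, 43 of the 54 genes had enough counts to be tested. Of these, 4 were higher in Taz-KD (9.3%, against 14.4% of all genes tested) and 7 were lower (16.3%, against 10.3% of all genes tested). The 4 higher genes were Acta1, Ankrd1, Myom3 and Des, and the 7 lower genes were Mybpc2, Myh7b, Tnnt1, Tcap, Myl3, Lmod2 and Tpm3. For 6 of the 43 the genotypes did not overlap (14%, against 18.3% of all genes tested). The median log2 fold change of the 43 was −0.06, beside −0.02 for all genes tested. Without R1796, R1797 and R1798, a choice made after seeing the data, Ankrd1 and Myom3 still passed as higher and Myh7b and Tnnt1 as lower, and 7 of the 11 did not pass. That fit sets Taz-KD hearts R2 and R1793 alone against 5 WT hearts. Over all genes it called 1522 higher and 647 lower, against 2804 and 1999 with all hearts. The 11 genes kept their signs, and the smaller group and the hearts left out cannot be told apart.

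**Figure D1:**
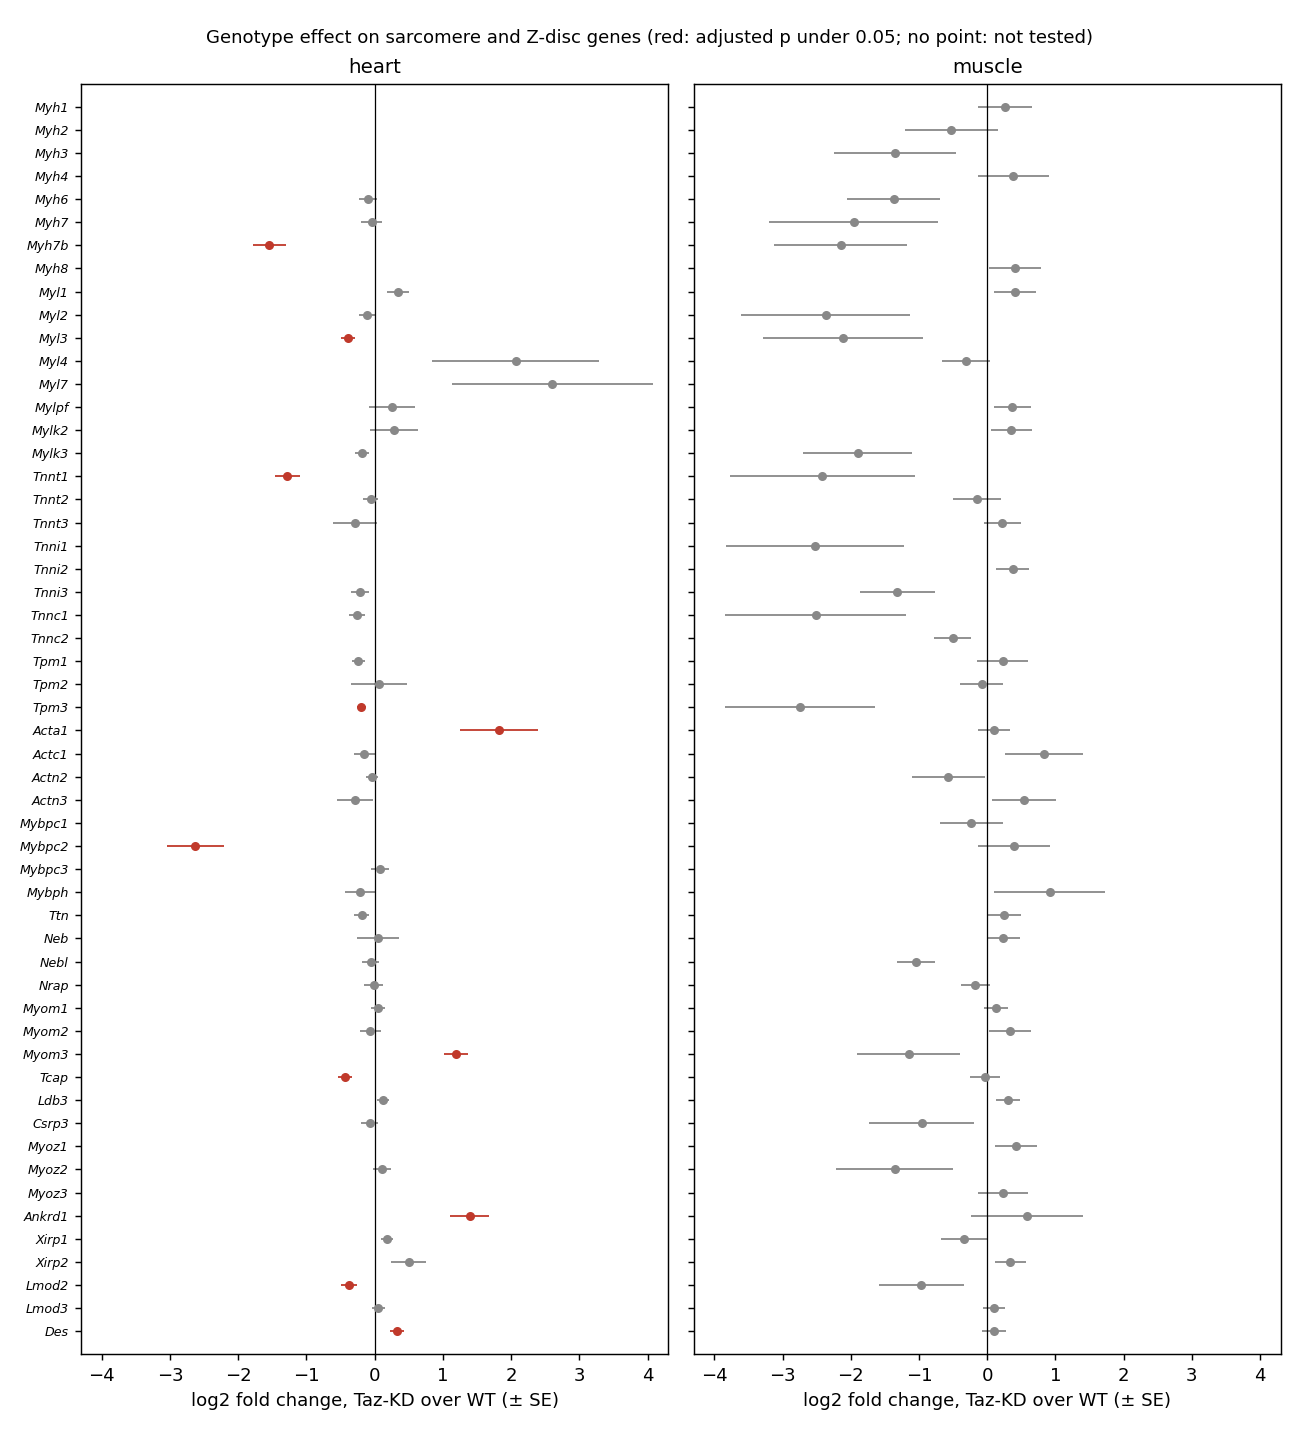
Log2 fold change of each tested gene, Taz-KD over WT, with its standard error, in heart (left) and muscle (right). The x axes are shared in scale, red points passed the test, and in heart the points farthest from 0 that passed were Mybpc2 at −2.63 and Acta1 at 1.82, while no gene passed in muscle.

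The major cardiac heavy chain did not pass the test. Myh6, the fast ATPase chain of the adult mouse heart, had 29210, 24180, 24080, 23590 and 34090 CPM in Taz-KD hearts, against 23140, 32310, 28310, 29060 and 31530 CPM in WT hearts. The genotypes overlapped throughout, with a log2 fold change of −0.09 ± 0.13 (SE) and an adjusted p of 0.641. Myh7, the slow chain that is re-expressed in many forms of heart failure in mice, averaged 866 ± 209 CPM in Taz-KD and 893 ± 92.7 CPM in WT (SD, n = 5 each). Per exon length, Myh7 made up 1.58 to 3.29% of the sum of Myh6 and Myh7 in Taz-KD hearts and 1.84 to 2.80% in WT hearts. The shares overlapped, so no shift between these chains was seen. Exons of Myh7 overlap the antisense RNA Mhrt, whose row averaged 333 CPM in Taz-KD and 331 CPM in WT.

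Myh7b, an ancient slow heavy chain, was the heavy chain that passed. It had 57.1, 55.98, 55.9, 25.0 and 39.4 CPM in Taz-KD hearts, against 105, 111, 138, 157 and 170 CPM in WT hearts. Every Taz-KD heart was below every WT heart. The log2 fold change was −1.54 ± 0.24 (SE), a level 0.343 of WT, with an adjusted p of 0.00116. Myh7b lies on chromosome 2 at 155611212 to 155634307 on the plus strand (GRCm38).

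Each of these 3 heavy chain genes carries a miRNA in an intron, and their mature sequences are shown because the hairpin rows can be set beside the host genes. From RefSeq (GRCm38.p6), with the seed, bases 2 to 8, in capitals:
miR-499-5p, within Myh7b: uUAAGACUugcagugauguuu
miR-208a-3p, within Myh6: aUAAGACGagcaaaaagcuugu
miR-208b-3p, within Myh7: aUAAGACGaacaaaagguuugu
miR-208a-3p and miR-208b-3p share the seed UAAGACG, and the seed of miR-499-5p is UAAGACU. The hairpin rows, named after their values were seen, count any read over the hairpin, unspliced host RNA included, and are no measure of the mature miRNA. The Mir499 hairpin row averaged 0.445 ± 0.12 CPM in Taz-KD hearts and 0.788 ± 0.23 CPM in WT hearts (SD, n = 5 each), with a log2 fold change of −0.82 and an adjusted p of 0.0398. At this low level the genotypes overlapped, with 0.283 to 0.58 CPM in Taz-KD and 0.489 to 1.09 CPM in WT. Whether this call held without single hearts was not checked. The Mir208b row averaged 14.0 ± 2.7 CPM in Taz-KD and 22.3 ± 2.5 CPM in WT (log2 fold change −0.67, adjusted p 0.00176), although its host Myh7 did not pass the test. The Mir208a row did not pass (5.52 CPM in Taz-KD, 6.23 CPM in WT, adjusted p 0.575).

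Among the light chains, which wrap the lever arm of the myosin head, Myl3, the essential light chain of ventricle and slow fibers, was lower. It had 2238, 1838, 2038, 1584 and 1990 CPM in Taz-KD hearts, against 2155, 2495, 2454, 2799 and 2756 CPM in WT hearts. Only WT heart R3 fell within the Taz-KD range, and the log2 fold change was −0.39 ± 0.10 (SE, adjusted p 0.0157). Without R1796, R1797 and R1798, the hearts highest in the light chains Myl4 and Myl7, the adjusted p was 0.206 at a log2 fold change of −0.31. Only R2 and R1793 were then left for Taz-KD. Myl2, the regulatory light chain of ventricle, averaged 2636 ± 372 CPM in Taz-KD and 2843 ± 402 CPM in WT and did not pass (adjusted p 0.56). Neither did Mylk3, the kinase that phosphorylates it, at 568 ± 71.3 CPM in Taz-KD and 648 ± 81.4 CPM in WT (adjusted p 0.205).

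The atrial light chains Myl4 and Myl7 were high in a few hearts only. Myl4 had 1.55, 2.32, 70.9, 45.0 and 90.8 CPM in Taz-KD hearts, against 20.0, 5.71, 21.9, 1.12 and 1.46 CPM in WT hearts. Myl7 had 0.218, 0.366, 50.4, 28.2 and 59.7 CPM in Taz-KD hearts, against 8.79, 1.77, 11.7, 0.42 and 0 CPM in WT hearts. Both were high in R1796, R1797 and R1798, intermediate in WT R3 and R1792, and low in the rest. The atrial marker Sln had the same pattern, with 10.9, 4.36 and 10.5 CPM in R1796, R1797 and R1798 and at most 2.48 CPM in the other hearts. Neither light chain passed the test (adjusted p 0.271 for Myl4 and 0.246 for Myl7). Without those 3 hearts, a choice made after seeing the data, their log2 fold changes were −2.37 and −3.94. The hearts left out are all Taz-KD and the highest in both genes, so a move downward was fixed in advance and nothing is read from it. The 7 atrial markers summed to 347, 763, 657, 367 and 615 CPM in Taz-KD hearts, against 351, 243, 332, 467 and 478 CPM in WT hearts. The sum was highest in R1793, where Nppa, the atrial natriuretic peptide, was 427 CPM, and in R1797 it lay within the WT range. The part of the atrial markers in the other results was not tested.

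**Figure D2:**
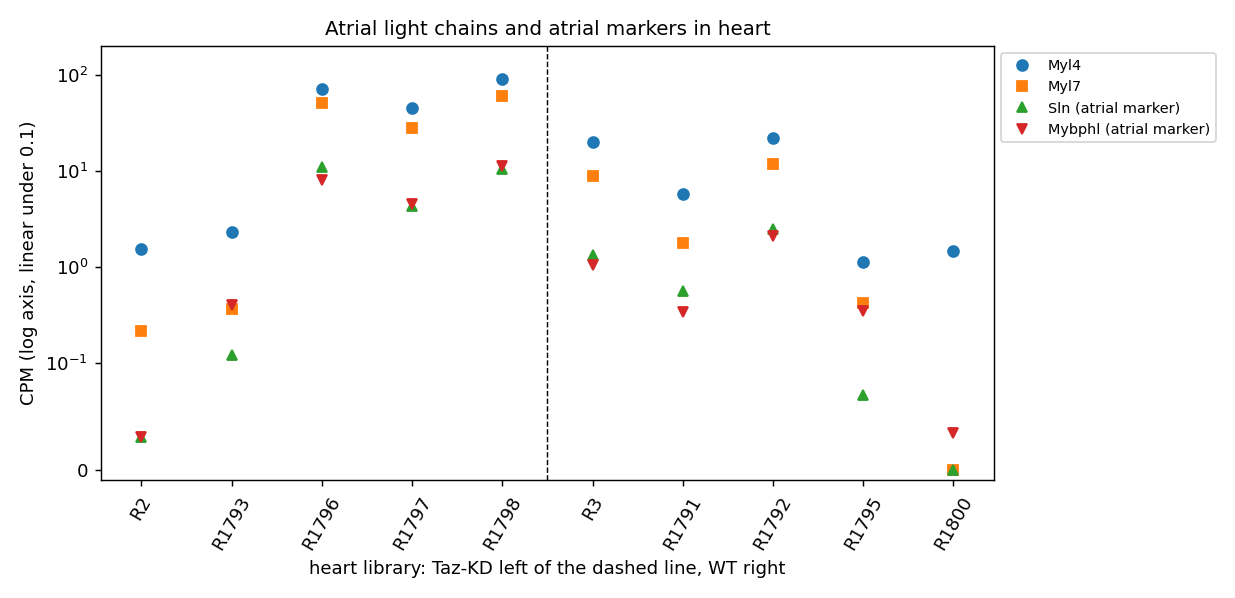
CPM of the atrial light chains Myl4 and Myl7 and of the atrial markers Sln and Mybphl in each heart library, Taz-KD left of the dashed line and WT right, on a log axis that is linear under 0.1. The other atrial markers are not drawn, and these 4 genes were highest in R1796, R1797 and R1798, where Myl4 was 45.0 to 90.8 CPM.

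Of the myosin binding proteins, Mybpc2, the fast skeletal form, gave the lowest ratio of all 43 genes. It had 5.22, 5.31, 6.00, 4.27 and 2.90 CPM in Taz-KD hearts, against 29.8, 8.01, 47.1, 34.5 and 27.8 CPM in WT hearts. The genotypes did not overlap, although WT heart R1791 came close. The log2 fold change was −2.63 ± 0.42 (SE), a level 0.161 of WT, with an adjusted p of 0.00172. Without R1796, R1797 and R1798, with only R2 and R1793 left for Taz-KD, the adjusted p was 0.0752 at a log2 fold change of −2.48. Mybpc3, the cardiac form and the most abundant of the family, averaged 2852 ± 330 CPM in Taz-KD and 2695 ± 515 CPM in WT and did not pass (adjusted p 0.699).

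Fast skeletal markers were read beside Mybpc2. Casq1, the calsequestrin of fast fibers, ranged over 2.78 to 4.35 CPM in Taz-KD hearts and 5.11 to 22.8 CPM in WT hearts, with WT heart R1791 again lowest. It was 1 of 2 lower genes among the 4 fast-fiber markers tested, the other being Tmod4, beside 10.3% of all genes lower. Atp2a1, also among the 4, did not pass (adjusted p 0.325), and its genotypes overlapped. It ranged over 1.35 to 1.89 CPM in Taz-KD and 1.32 to 2.89 CPM in WT. Without Pygm the list summed to 7.82 to 13.5 CPM in Taz-KD and 16.0 to 31.5 CPM in WT. Pygm, muscle glycogen phosphorylase, made up nearly all of the full sum, at 724 to 848 CPM in Taz-KD and 809 to 912 CPM in WT, and did not pass (adjusted p 0.103). Pvalb, a defining fast-fiber gene, was at 0.354 CPM or less in every heart, and Myh4, the fast heavy chain, was at 0 in all of them.

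The 250 bases before the RefSeq start of Acta1 and Mybpc2 are shown because they were the genes with the highest and the lowest ratio among those that passed, and because neither window holds an annotated exon (GRCm38.p6, minus strand, 5′ to 3′). Capitals mark the MCAT element GGAATG, bound by TEAD factors, on either strand, the CArG box, bound by SRF, and the TATA sequence TATAAA on either strand:
Acta1, chr8:123894776-123895025: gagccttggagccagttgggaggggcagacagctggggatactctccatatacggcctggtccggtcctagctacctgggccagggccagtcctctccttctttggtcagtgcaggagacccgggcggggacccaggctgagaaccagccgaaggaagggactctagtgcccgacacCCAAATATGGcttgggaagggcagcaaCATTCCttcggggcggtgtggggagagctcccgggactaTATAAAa
Mybpc2, chr7:44524670-44524919: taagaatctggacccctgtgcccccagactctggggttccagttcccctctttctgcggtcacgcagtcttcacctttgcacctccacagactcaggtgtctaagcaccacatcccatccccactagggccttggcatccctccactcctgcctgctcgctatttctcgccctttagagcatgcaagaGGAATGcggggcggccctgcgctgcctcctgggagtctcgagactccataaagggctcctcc
Acta1 held a CArG box 73 to 64 bases, an MCAT element 46 to 41 bases and TATAAA 7 to 2 bases before the start, and Mybpc2 held an MCAT element 62 to 57 bases before it. GENCODE starts these genes farther downstream, at 123894751 for Acta1 and 44524656 for Mybpc2, and distances from those starts are longer. RefSeq windows were matched for 43 of the 54 genes. The MCAT element was in 15 of them (34.9%, against 12.6% of 27025 promoters), the CArG box in 7 (16.3%, against 1.4%) and TATAAA in 8 (18.6%, against 13.0%). The element TGATGNAA on either strand, of the kind bound by ATF4 with C/EBP factors, was in 1 (2.33%, against 3.53%). A match describes the letters and is not evidence of binding.

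The actins of the thin filament differed in one isoform. Acta1, skeletal alpha-actin, which is also expressed in the fetal heart, had 582, 1493, 632, 677 and 533 CPM in Taz-KD hearts, against 169, 35.5, 384, 251 and 270 CPM in WT hearts. Every Taz-KD heart was above every WT heart, with R1793 far above the others and WT R1791 lowest. The log2 fold change was 1.82 ± 0.57 (SE), 3.53 times WT, with an adjusted p of 0.0464. That call was near the threshold: leaving out any one of R2, R1793, R1796, R1797, R1798, R3, R1795 or R1800 gave adjusted p values of 0.0607 to 0.104, while the log2 fold change stayed between 1.45 and 2.12 over all 10 such fits. Actc1, cardiac alpha-actin, averaged 4736 ± 650 CPM in Taz-KD and 5265 ± 1215 CPM in WT and did not pass (adjusted p 0.505). Per exon length, Acta1 was 11.2 to 21.5% of both actins in Taz-KD hearts and 0.926 to 7.49% in WT hearts.

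Of 5 troponin genes tested, which hold tropomyosin over the myosin sites on actin, 1 passed, the slow form of troponin T, which was lower. Of all genes tested, 10.3% were lower and 14.4% higher. Tnnt1 had 3.48, 2.17, 2.77, 2.45 and 3.80 CPM in Taz-KD hearts, against 6.08, 8.04, 5.72, 6.41 and 9.37 CPM in WT hearts. The genotypes did not overlap, and the log2 fold change was −1.28 ± 0.18 (SE), a level 0.412 of WT, with an adjusted p of 0.000309. Tnnt2 averaged 3097 ± 466 CPM in Taz-KD and 3226 ± 255 CPM in WT (adjusted p 0.734), and Tnni3, cardiac troponin I, averaged 1528 ± 260 CPM in Taz-KD and 1770 ± 285 CPM in WT (adjusted p 0.283). Tnnt2 made up 99.53 to 99.63% of the 3 troponin T genes per exon length in Taz-KD hearts, against 98.97 to 99.26% in WT hearts. Tnnc1, cardiac and slow troponin C, averaged 720 ± 91.1 CPM in Taz-KD and 863 ± 141 CPM in WT (adjusted p 0.133). It did not pass in 9 of 10 fits without 1 heart, the exception being without WT heart R3 (adjusted p 0.0382). Nor did it pass in any of 12 other settings.

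Of 9 slow-type genes tested in heart, 4 were lower (Myh7b, Myl3, Tnnt1 and Tpm3) and 0 higher in edgeR's test, beside 10.3% of all genes lower and 14.4% higher. Only Myh7b and Tnnt1 of these passed without R1796, R1797 and R1798, where the adjusted p was 0.206 for Myl3 and 0.164 for Tpm3. With only R2 and R1793 left for Taz-KD, that fit also called fewer of all genes. Of 3 slow-fiber markers that are not among the 54 genes, 2 were lower as well, Atp2a2, the calcium pump of heart and slow fibers, and Pln, the phospholamban that restrains it. The summed list ranged over 11240 to 13840 CPM in Taz-KD hearts and 15960 to 19780 CPM in WT hearts. These genes are also expressed by ventricular myocytes, and their part in the result was not tested.

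Tropomyosins and leiomodin, which cover and elongate the thin filament, moved little. Tpm3, the slow tropomyosin gene, had 41.2, 41.1, 44.9, 43.0 and 39.2 CPM in Taz-KD hearts, against 49.8, 42.2, 46.8, 49.1 and 52.2 CPM in WT hearts. The row counts all transcripts of the gene, so the slow muscle form was not measured apart. The log2 fold change was −0.20 ± 0.07 (SE, adjusted p 0.0423), and only WT R1791 fell within the Taz-KD range. Tpm3 was the smallest of the changes that passed and is named because the full set of 11 is given. Leaving out any one of R2, R1793, R1797, R1798, R3, R1792, R1795 or R1800 gave an adjusted p of 0.0570 to 0.0962. Tpm1, the main cardiac tropomyosin, averaged 3346 ± 331 CPM in Taz-KD and 3947 ± 412 CPM in WT (adjusted p 0.0884). It did not pass in 9 of 10 fits without 1 heart (0.0454 without R3) or in 9 of 12 other settings. It passed as lower with DESeq2, with library sizes alone and without R2 and R3 (adjusted p 0.0268 in that edgeR fit). Lmod2, a thin filament elongation factor, had 535, 350, 393, 424 and 481 CPM in Taz-KD hearts, against 469, 626, 546, 643 and 562 CPM in WT hearts, and the genotypes overlapped at R2, R1798 and R3. Its log2 fold change was −0.38 ± 0.12 (SE, adjusted p 0.0323). Without any one of R1793, R1796, R1797, R1791, R1792, R1795 or R1800 the adjusted p was 0.0543 to 0.0809.

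Titin and the M-band, the lattice that links thick filaments at the center of the sarcomere, differed in the minor M-band gene. Myom3 had 7.28, 6.63, 7.34, 4.18 and 5.52 CPM in Taz-KD hearts, against 3.28, 3.01, 2.31, 2.80 and 2.15 CPM in WT hearts. The lowest Taz-KD heart, R1797, was above the highest WT heart. The log2 fold change was 1.19 ± 0.17 (SE), 2.28 times WT, with an adjusted p of 0.000367. Myom2, the M-protein, averaged 1261 ± 327 CPM in Taz-KD and 1319 ± 146 CPM in WT (adjusted p 0.802). Ttn, titin, averaged 64750 ± 6843 CPM in Taz-KD and 73960 ± 7224 CPM in WT (adjusted p 0.223). It did not pass in any of 10 fits without 1 heart or in 10 of 12 other settings. It passed as lower with library sizes alone and without R2 and R3 (adjusted p 0.0484 in the latter).

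At the Z-disc, Tcap, the telethonin cap that binds the end of titin, was lower. It had 484, 461, 377, 442 and 545 CPM in Taz-KD hearts, against 530, 597, 653, 609 and 720 CPM in WT hearts. The genotypes overlapped only at R1798 and R3, and the log2 fold change was −0.43 ± 0.10 (SE, adjusted p 0.00928). Without R1796, R1797 and R1798, with only R2 and R1793 left for Taz-KD, the adjusted p was 0.0782 at a log2 fold change of −0.39. Actn2, alpha-actinin, which crosslinks actin there, averaged 1577 ± 94.5 CPM in Taz-KD and 1617 ± 198 CPM in WT (adjusted p 0.811), and Csrp3, muscle LIM protein, averaged 476 ± 83.0 CPM in Taz-KD and 501 ± 67.7 CPM in WT (adjusted p 0.721).

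The stretch-responsive genes differed by member. Ankrd1, the cardiac ankyrin repeat protein that binds titin and shuttles to the nucleus, had 1303, 1662, 2054, 883 and 1224 CPM in Taz-KD hearts, against 458, 306, 575, 865 and 514 CPM in WT hearts. The genotypes did not overlap, though Taz-KD R1797 and WT R1795 were close to each other. The log2 fold change was 1.39 ± 0.29 (SE), 2.62 times WT, with an adjusted p of 0.00659. Xirp2 averaged 1620 ± 624 CPM in Taz-KD and 1146 ± 251 CPM in WT (adjusted p 0.186). Xirp1 averaged 270 ± 31.5 CPM in Taz-KD and 239 ± 19.9 CPM in WT (adjusted p 0.178). It did not pass in 9 of 10 fits without 1 heart (0.0476 without R1797) or in any of 12 other settings. Des, desmin, the intermediate filament that ties Z-discs together, had 1553, 1851, 1885, 1324 and 1500 CPM in Taz-KD hearts, against 1152, 1229, 1329, 1363 and 1405 CPM in WT hearts. Only Taz-KD heart R1797 fell within the WT range. Its log2 fold change was 0.32 ± 0.10 (SE, adjusted p 0.0361), and without any one of R2, R1793, R1796, R3, R1791, R1792 or R1795 the adjusted p was 0.0513 to 0.0929.

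**Figure D3:**
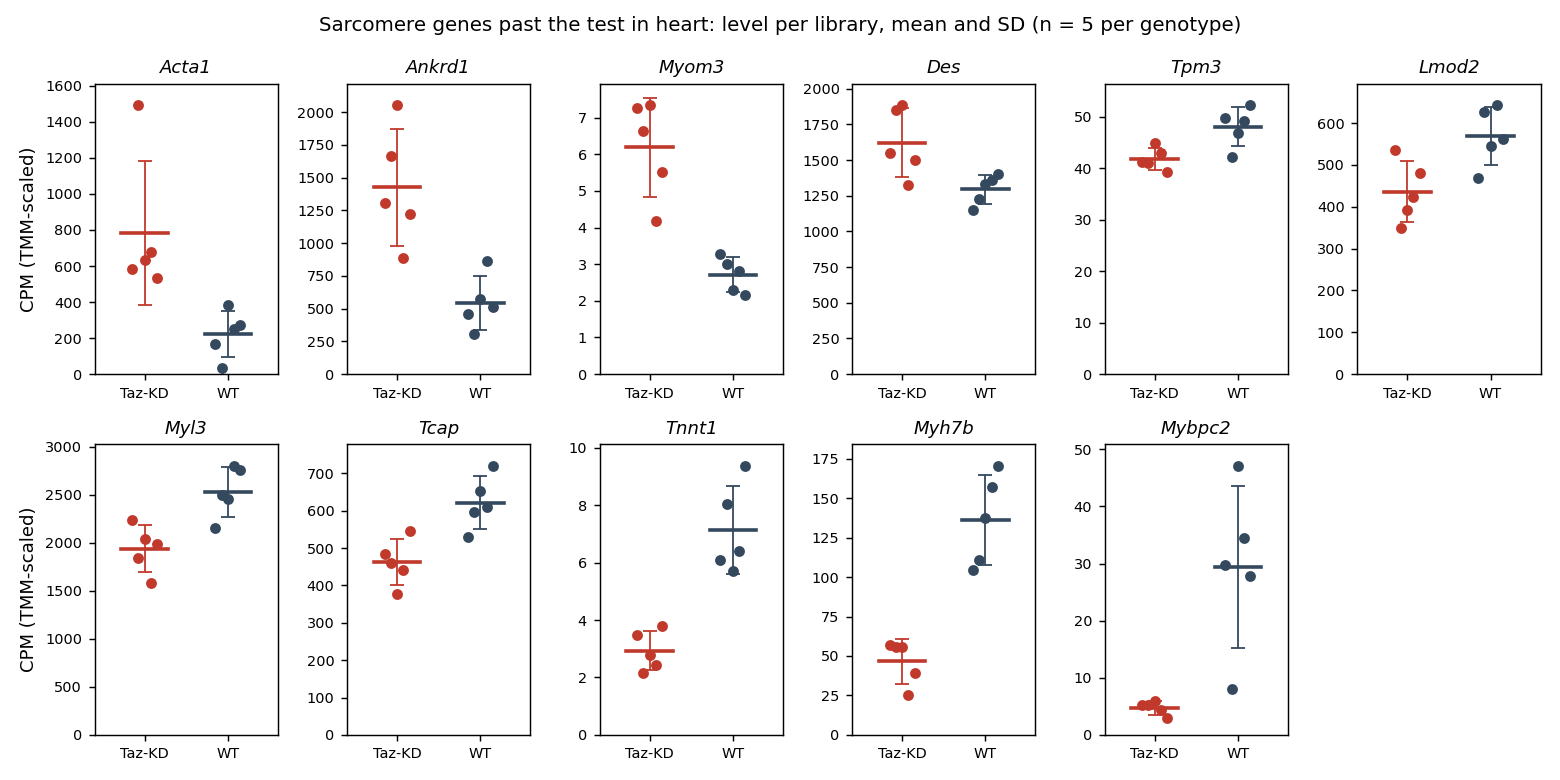
CPM of the 11 genes that passed the test in heart, Taz-KD left of WT in each panel, from the highest to the lowest log2 fold change. Points are libraries, thick lines are means and error bars are SD over 5 mice, and the y axes start at 0. Acta1, Ankrd1, Myom3, Tnnt1, Myh7b and Mybpc2 did not overlap between genotypes.

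Among 54 further genes of sarcomere partners, 52 were tested in heart, 8 were higher (15.4%, against 14.4% of all genes tested) and 13 lower (25%, against 10.3%) in Taz-KD, with a median log2 fold change of −0.10. The 4 with the smallest adjusted p were Klhl40, a chaperone of thin filament proteins, at 7.37 CPM in Taz-KD and 15.1 CPM in WT, Obsl1, an obscurin-like linker, at 98.2 CPM in Taz-KD and 146 CPM in WT, Cfl2, muscle cofilin, at 271 CPM in Taz-KD and 187 CPM in WT, and Hspb1, a small heat shock protein, at 231 CPM in Taz-KD and 110 CPM in WT. Their log2 fold changes were −1.03, −0.57, 0.54 and 1.07. Of 29 regulators of sarcomere genes tested, 3 were higher (10.3%) and 2 lower (6.9%), both shares below those of all genes. Wwtr1, the TEAD coactivator TAZ, a gene distinct from tafazzin, averaged 124 CPM in Taz-KD and 89.0 CPM in WT (log2 fold change 0.48, adjusted p 0.000226). Nkx2-5, a cardiac homeobox factor, averaged 59.2 CPM in Taz-KD and 44.7 CPM in WT (adjusted p 0.00951), while Nfatc2 and Nfatc1, targets of calcineurin, were lower (log2 fold changes −0.40 and −0.22).

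In muscle, 52 of the 54 genes were tested and 0 passed the edgeR test in either direction, beside 0.0124% of all genes higher and 0.00619% lower. At an unadjusted p under 0.05 there were 4, all lower in Taz-KD (Tpm3, Mylk3, Tnni3 and Nebl). That is 7.69% of the genes, beside 14.9% of all genes tested (2408 of 16145, 1816 of them lower). DESeq2 and limma-voom also called 0, with 11 and 1 genes at an unadjusted p under 0.05. For 0 of the 52 were the genotypes apart, beside 2.14% of all genes tested. The median log2 fold change was −0.06, beside −0.02 for all genes tested. The spread between mice was large: for genes averaging 10 CPM or more within the group, the median coefficient of variation was 34.3% over 44 of these genes in Taz-KD and 52.1% over 46 in WT, beside 9.75% in Taz-KD and 17.9% in WT for all genes of that level. In heart it was 15.1% in Taz-KD and 13.3% in WT over 35 genes, beside 8.74% in Taz-KD and 8.34% in WT for all genes.

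The femur muscle samples were fast muscle in most mice. Myh4, the fastest heavy chain, had 53580, 49560, 86310, 68860 and 41460 CPM in Taz-KD muscles, against 32140, 44330, 66350, 6403 and 81100 CPM in WT muscles. WT muscle A55 stood far below all the others. Myh4 was 86.4 to 98.6% of the 4 adult heavy chains per exon length in Taz-KD muscles and 37.0 to 96.6% in WT muscles. Myh2, the fast oxidative chain, was 0.284 to 6.12% in Taz-KD and 1.34 to 31.0% in WT, and Myh1 was 0.985 to 6.93% in Taz-KD and 1.56 to 16.8% in WT.

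**Figure D4:**
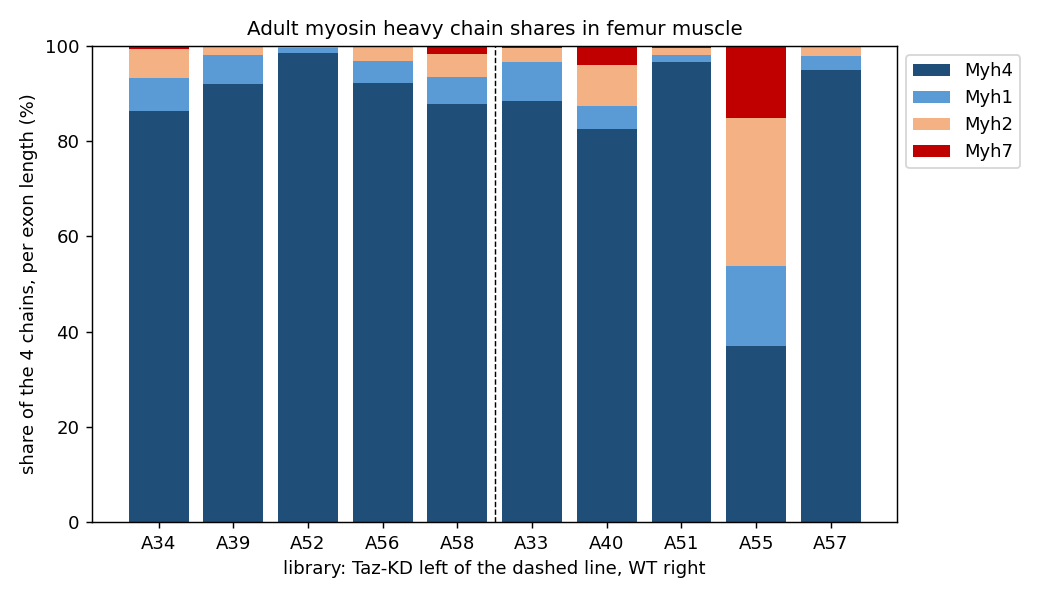
Share of Myh4, Myh1, Myh2 and Myh7 in their sum per exon length in each muscle library, Taz-KD left of the dashed line and WT right. In WT muscle A55, Myh4 made up 37.0% and Myh7 15.2%, while in the 5 Taz-KD muscles Myh4 was 86.4 to 98.6%.

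The slow isoforms varied the most between mice. Myh7, the slow heavy chain, had 501, 12.9, 104, 206 and 1116 CPM in Taz-KD muscles, against 150, 3104, 458, 3780 and 52.3 CPM in WT muscles. The highest library was 292 times the lowest, and the genotypes overlapped. Tnnt1, slow troponin T, had 213, 8.07, 34.6, 89.1 and 550 CPM in Taz-KD muscles, against 52.2, 1236, 295, 3168 and 19.6 CPM in WT muscles. Tnni1, slow troponin I, had 48.3, 2.94, 14.9, 38.2 and 191 CPM in Taz-KD muscles, against 26.2, 451, 112, 1102 and 7.92 CPM in WT muscles. Of the 11 slow-type genes, A55 was highest in 11 and A40 second in 11, and the lowest was Taz-KD muscle A39 in 8 and A52 in 3.

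The slow-fiber marker Atp2a2, the slow calcium pump, followed the same mice, with 651, 37.5, 121, 222 and 996 CPM in Taz-KD muscles, against 148, 2660, 501, 3450 and 103 CPM in WT muscles. The summed slow-fiber markers ranged over 115 to 1256 CPM in Taz-KD and 221 to 4587 CPM in WT, and their part in the genotype effect was not tested. All 11 slow-type genes had a log2 fold change below 0, with a median of −2.14, and none passed. Without A40 and A55, a choice made after seeing the data, signs turned: Myh7 gave 0.815, Tnnt1 0.545, Tnni1 0.279 and Tnnc1, slow troponin C, 0.278 on the log2 scale. These muscles are both WT and were the highest in these same genes. A move upward without them was therefore fixed in advance, and nothing is read from the turned signs.

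**Figure D5:**
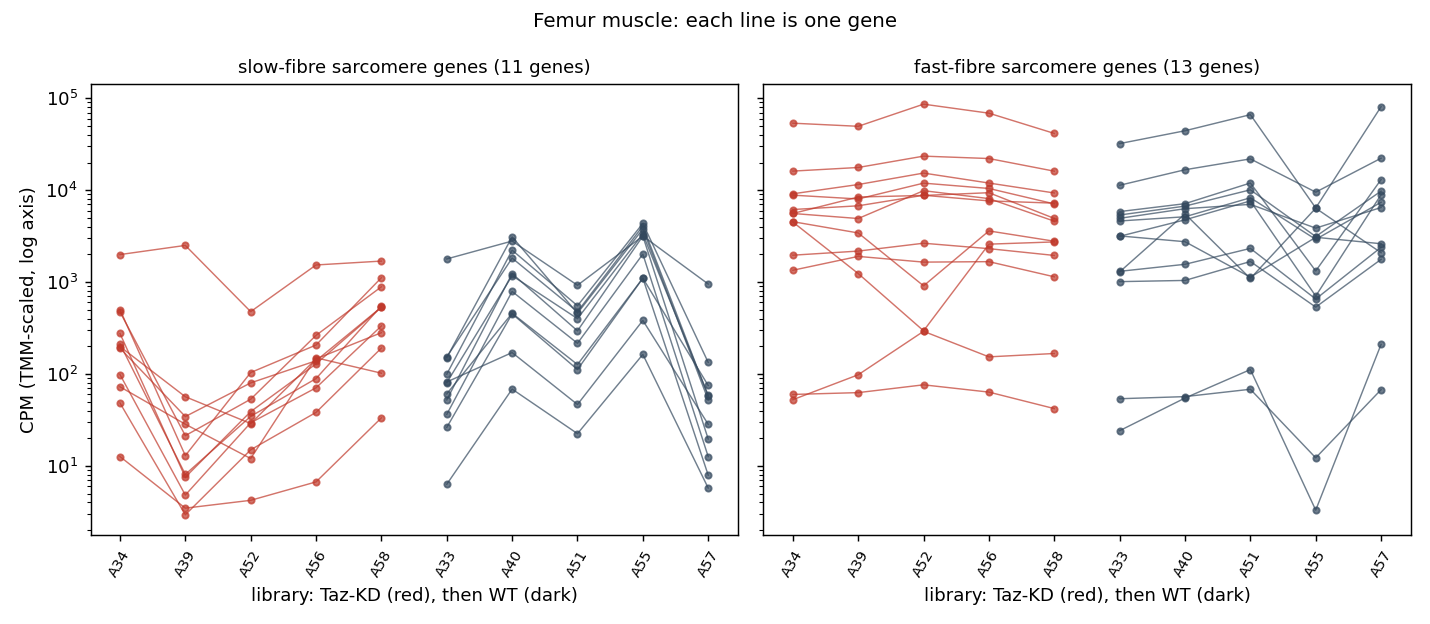
CPM on a log axis of 11 slow-fiber and 13 fast-fiber genes in each muscle library, Taz-KD first in red and WT after it in dark blue, with 1 line per gene. The slow genes rise and fall together between mice of the same genotype and peak in A55 and A40, while most fast genes are lowest in A55.

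The fast isoforms were steadier. Tnni2, fast troponin I, had 5576, 8425, 8762, 9387 and 4929 CPM in Taz-KD muscles, against 4942, 6288, 7010, 3865 and 6478 CPM in WT muscles (log2 fold change 0.38 ± 0.24, SE, adjusted p 0.451). Mybpc2, the gene with the lowest ratio of Taz-KD to WT in heart, had 5578, 4915, 9875, 8097 and 4601 CPM in Taz-KD muscles, against 3149, 4758, 7643, 704 and 8940 CPM in WT muscles. It was low in A55 only, and did not pass (log2 fold change 0.39 ± 0.53, SE, adjusted p 0.704). Of 13 fast-type genes, A55 was lowest in 11 and Taz-KD muscle A52 highest in 9. Acta1, the main actin here, averaged 32740 ± 6798 CPM in Taz-KD and 30510 ± 7309 CPM in WT (adjusted p 0.831), Tnnt3, fast troponin T, averaged 19090 ± 3461 CPM in Taz-KD and 16340 ± 5882 CPM in WT (adjusted p 0.667), and Mylpf, the fast regulatory light chain, averaged 7320 ± 997 CPM in Taz-KD and 5666 ± 2160 CPM in WT (adjusted p 0.486).

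The structural and stretch-responsive genes did not pass in muscle either. Ankrd1 had 9.45, 0.754, 3.66, 30.1 and 31.0 CPM in Taz-KD muscles, against 2.66, 11.5, 7.73, 20.1 and 7.82 CPM in WT muscles, and the genotypes overlapped (adjusted p 0.713). Des averaged 3812 ± 296 CPM in Taz-KD and 3570 ± 697 CPM in WT (adjusted p 0.783), Tcap averaged 4177 ± 325 CPM in Taz-KD and 4265 ± 1394 CPM in WT (adjusted p 0.947), and Xirp2 averaged 1987 ± 388 CPM in Taz-KD and 1571 ± 456 CPM in WT (adjusted p 0.468). The Tnnc2 row, fast troponin C, held 0.321 to 0.978 CPM in every muscle although fast troponin I and T held 3865 CPM or more. Its exons share 592 of 800 bases with Ube2c on the other strand, so the row was not read as a level, and the cause was not tested. None of 51 sarcomere partners and 30 regulators tested passed in muscle. The smallest adjusted p values were 0.311 for Alpk2 and 0.313 for Wwtr1.

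The genotype effect differed between tissues for 2 of the 54 genes, beside 4.62% of all genes tested. For Mybpc2 the log2 effect in muscle minus that in heart was 3.07 ± 0.72 (SE, adjusted p 0.0176). Tnni2 entered this fit only through its high level in muscle: it averaged 0.147 CPM in Taz-KD hearts and 0.369 CPM in WT hearts, too low for a test within heart. Its difference of 1.74 ± 0.49 (SE, adjusted p 0.0452) is therefore given as a value and nothing is read from it. Without any one of R2, R1793, R1796, R1797, R3, R1791, R1792, R1795, R1800, A39, A52, A56, A33 or A55 the adjusted p for Tnni2 was 0.0546 to 0.0964. For the other genes that passed in heart, Acta1, Ankrd1, Myom3, Myh7b and Tnnt1 among them, a difference between tissues did not pass in edgeR. DESeq2 called 1 for Acta1, at −1.64 on the log2 scale (adjusted p 0.0492).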

How the data were processed

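Total RNA from frozen heart and femur muscle was sequenced by the authors as 150 bp paired-end reads and aligned to the mouse genome (mm10, GRCm38) with STAR. The deposited values are unnormalized read counts per gene from featureCounts 1.6.4, per the labels, 1 table per tissue. For the strand setting, multimapping reads and annotation release, values were not given in the sources used here. In this work, gene names, positions and exon lengths came from GENCODE M21. For 19 of the 54 genes, exons overlap another gene, whose reads may be shared.

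Counts were tested per tissue with edgeR 4.0.16 (TMM factors, filterByExpr, robust quasi-likelihood fit, Benjamini-Hochberg adjustment over all genes tested), and the tissue difference as an interaction over 20 libraries. DESeq2 1.42.0, limma-voom (limma 3.58.1), other scalings and filters, and fits without single libraries were alternatives. Intervals and SE rest on 5 mice per group. Genes named were the members with the largest changes among those passed, the most abundant of each family, and fixed isoform sets. The genes and lists were chosen with earlier results of these data known. The marker lists cover atrial, ventricular, slow-fiber, fast-fiber, smooth muscle, fibroblast, endothelial, macrophage, adipocyte, red cell and denervated or regenerating cells.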

Additional observations from a re-analysis of the deposited data

Results flagged for a closer look

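Of the genes named above, 7 values stood far from the other 4 of their group by Dixon's test, out of 108 groups of 5 checked, where chance alone gives about 1 in 20. In heart these were Acta1 at 1493 CPM in Taz-KD heart R1793 (others 533 to 677), Mylk3 at 789.8 CPM in WT heart R1791 (others 592 to 639) and Ttn at 61400 CPM in WT heart R3 (others 74590 to 79360). In muscle they were Tnni1 at 191.4 CPM and Tnnc1 at 333.4 CPM in Taz-KD muscle A58 (others at most 48.3 and 98.6), Myh1 at 1131 CPM in WT muscle A51 (others 2613 to 3179) and Des at 2335 CPM in WT muscle A33 (others 3783 to 3982).

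For 2 genes the genotype effect differed between tissues by the interaction test: Mybpc2, with a log2 difference of 3.072 (muscle minus heart), and Tnni2, with 1.74. Tnni2 passed the filter on low counts only through muscle, and its call was lost in 14 of the 20 fits without 1 library, without the filter and without the robust fit, so nothing is read from it.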

How the results depend on the processing

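In heart, Myh7b, Tnnt1, Myom3 and Ankrd1 passed under each alternative except the single fit of all 20 libraries, and Mybpc2 under each except the one without R1796, R1797 and R1798. Myl3 and Tcap were lost under both of those. In heart, 2 genes were higher in the single fit of all 20 libraries (Acta1 and Myh8), 2 without R2 and R3 (Ankrd1 and Myom3), and the same 2 without R1796, R1797 and R1798, against 4 in the report. Myh8 was at most 0.529 CPM in any heart, too low for the main heart test. It entered the fits of both tissues only through muscle (4.75 to 25.5 CPM), so nothing is read from its calls. Lower were 1 in the single fit (Mybpc2) and 3 without R1796, R1797 and R1798 (Myh7b, Tnnt1 and Tnni2), against 7. Tnni2 was too low for the main heart test, at 2 to 12 counts in each library. With only R2 and R1793 left for Taz-KD it passed the filter through the WT hearts, where it was higher. Nothing is read from that call. Leaving out 1 heart gave 2 to 4 higher and 5 to 8 lower. In muscle 1 gene, Nebl, was lower in the single fit of all 20 libraries (adjusted p 0.0465), against 0. A different effect in muscle and heart was called for 5 genes by DESeq2 (Acta1, Nebl, Myh8, Mybpc2 and Tnni2), 4 with library sizes alone, 1 without the filter, 1 without the robust fit and 1 to 3 without 1 library, against 2. Over all genes, DESeq2 called 38 higher and 107 lower in muscle and the single fit 32 and 135, against 2 and 1 by edgeR, and in heart the single fit called 1372 higher and 715 lower and the fit without R1796, R1797 and R1798 1522 and 647, against 2804 and 1999. With library sizes alone the median log2 fold change of all muscle genes shifted by −0.138. The causes were not tested.

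Signs turned only for genes that did not pass. Without R1796, R1797 and R1798 the log2 fold changes in heart were 0.233 for Myh7, −2.37 for Myl4, −3.94 for Myl7, 0.00177 for Actn2, 0.0281 for Myom2 and 0.0431 for Csrp3. Without A40 and A55 those in muscle were 0.615 for Myh2, 0.815 for Myh7, 0.545 for Tnnt1, 0.279 for Tnni1, 0.278 for Tnnc1, −0.0125 for Tpm1, 0.0862 for Nrap, 0.274 for Tcap, 0.491 for Csrp3, 0.238 for Xirp1 and 0.416 for Lmod2. With library sizes alone they were −0.00833 for Acta1 and −0.0296 for Des, with limma-voom 0.0201 for Tcap and −0.141 for Ankrd1, and in the single fit 0.00377 for Tcap. Without 1 heart the ranges were −0.125 to 0.0667 for Myh7, −0.119 to 0.00504 for Tnnt2, −0.0969 to 0.0162 for Actn2, −0.00866 to 0.153 for Mybpc3, −0.215 to 0.0277 for Myom2 and −0.143 to 0.0107 for Csrp3. Without 1 muscle they were −0.0194 to 0.206 for Acta1, −0.141 to 0.178 for Tcap and −0.0258 to 0.138 for Des. The fits without R1796, R1797 and R1798 and without A40 and A55 were chosen after seeing the data. The libraries left out were the highest in Myl4 and Myl7 and in the slow-type genes. The direction in which those genes moved was therefore fixed in advance. The labels do not say whether mice of the 2 genotypes were matched, so no paired analysis was run. At these depths low rows such as Tnni2 in heart (2 to 12 counts in each library) limit the precision.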
